A study of Mus musculus with 6 samples.

Results

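The SIBLING genes (small integrin-binding ligand, N-linked glycoproteins) were followed through the apical mesenchyme of mouse molars. The table was searched by symbol for Spp1, Ibsp, Dmp1, Dspp and Mepe, and all 5 were found among its 25899 genes. Of these, 4 were among the 14444 genes that passed the filter on low values (a mean of at least 1 RPM, the reads of a gene scaled to a fixed total of mapped reads), and Mepe was not. RNA came from the apical part of the first mandibular molar at postnatal day 7.5. The 3 mutant libraries carried Gli1-CreER and floxed Bmpr1a alleles (Gli1-CreER;Bmpr1afl/fl), and the 3 control libraries came from littermates with the floxed alleles and no driver (Bmpr1afl/fl). All were on a mixed C57Bl6/129S6/SvEvTac background. CreER is a recombinase that works only once tamoxifen is present, and the Gli1 locus limits it to Gli1-expressing cells and their descendants. The labels give neither the tamoxifen schedule nor the number of animals per library, so p-values here measure the spread between libraries only. Litter 1 supplied 2 libraries of each genotype (control 1, control 2, mutant 1 and mutant 2) and litter 2 supplied 1 of each (control 3 and mutant 3).

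SIBLING proteins are secreted, acidic, heavily phosphorylated glycoproteins of bone and dentin that bind calcium and mineral and carry an integrin-binding RGD motif. Odontoblasts, the dentin-forming cells that line the pulp, are known for Dspp, whose product is cut into dentin sialoprotein and dentin phosphoprotein. Osteoblasts and cementoblasts are known for Ibsp (bone sialoprotein) and Spp1 (osteopontin), and osteocytes for Dmp1 and Mepe. Bmpr1a encodes a receptor for bone morphogenetic proteins, signals that drive differentiation of both cell types.

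The libraries held 15916045 to 20609420 reads on genes, and 14108 to 14485 genes reached 1 RPM. Bmpr1a itself was at 121, 139 and 149.5 RPM in controls 1 to 3 and at 108, 120.2 and 111 RPM in mutants 1 to 3, so the groups did not overlap. Its difference was -0.27 on the log2(RPM + 1) scale (SE 0.14, unadjusted p 0.091, limma). A value for the whole gene includes exons that the deletion spares and cells that never had Gli1-CreER. All 9 listed markers of apical dental mesenchyme were above the filter. Gli1, whose locus drives CreER, had 34.9, 30.4 and 63.7 RPM in controls 1 to 3 and 28.7, 19.8 and 26.6 RPM in mutants 1 to 3 (-0.70, SE 0.29, unadjusted p 0.046), and Lhx8, a homeobox gene of dental mesenchyme, also did not overlap (-0.46, SE 0.15, unadjusted p 0.018). Of the 9, 2 did not overlap and were lower in mutants, against 1.67% of all genes, and 3 had an unadjusted p under 0.05 and were lower (Gli1, Lhx8 and Lhx6), against 0.692%. Gli1 is in both counts. Only the mutants carry Gli1-CreER, and the part of that allele in the Gli1 values was not tested. Msx1 (0.05) and Barx1 (0.00) were not lower. Enamel epithelium genes summed to between 2408 and 48646 RPM, so the tissue was not mesenchyme alone.

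The 5 genes lie side by side on chromosome 5, within 270351 bases (chr5:104170703-104441053, GRCm38.p6, RefSeq), in the order Dspp, Dmp1, Ibsp, Mepe and Spp1. The submitters' processing notes name mm10, the same assembly. No other protein-coding gene lay between them in RefSeq. The flanking genes, Sparcl1 and Pkd2, differed between genotypes by -0.12 (SE 0.18, unadjusted p 0.532) and -0.02 (SE 0.22, unadjusted p 0.931) on the log2(RPM + 1) scale. Over the 6 libraries Sparcl1 ran from 179 to 267 RPM and Spp1 from 3.36 to 159 RPM.

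RefSeq start-site sequences were matched for 4 of the 5 genes. The 250 bases before the first listed start are shown for these 4, Spp1, Ibsp, Dmp1 and Mepe, and Dspp had no entry. All lie on the plus strand of GRCm38.p6: chr5:104434861-104435110 for Spp1, chr5:104299037-104299286 for Ibsp, chr5:104197325-104197574 for Dmp1 and chr5:104325079-104325328 for Mepe. Capitals mark the Runx core (ACCACA, or TGTGGT on the opposite strand) and the CCAAT box, which reads ATTGG in all of them because it lies on the opposite strand.
Spp1: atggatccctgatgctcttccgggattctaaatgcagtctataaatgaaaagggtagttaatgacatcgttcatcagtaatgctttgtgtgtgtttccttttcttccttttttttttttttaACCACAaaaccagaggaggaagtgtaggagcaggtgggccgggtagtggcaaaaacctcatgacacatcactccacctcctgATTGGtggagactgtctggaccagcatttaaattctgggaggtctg
Ibsp: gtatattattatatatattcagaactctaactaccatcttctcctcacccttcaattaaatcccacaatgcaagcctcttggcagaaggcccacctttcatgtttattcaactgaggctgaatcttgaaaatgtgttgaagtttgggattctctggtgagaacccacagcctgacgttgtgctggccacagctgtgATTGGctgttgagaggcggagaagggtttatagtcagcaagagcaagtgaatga
Dmp1: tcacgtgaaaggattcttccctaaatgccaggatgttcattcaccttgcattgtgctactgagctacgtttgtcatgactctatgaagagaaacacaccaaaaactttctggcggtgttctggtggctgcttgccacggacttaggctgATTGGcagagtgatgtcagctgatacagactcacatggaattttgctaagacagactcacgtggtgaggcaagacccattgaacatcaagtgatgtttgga
Mepe: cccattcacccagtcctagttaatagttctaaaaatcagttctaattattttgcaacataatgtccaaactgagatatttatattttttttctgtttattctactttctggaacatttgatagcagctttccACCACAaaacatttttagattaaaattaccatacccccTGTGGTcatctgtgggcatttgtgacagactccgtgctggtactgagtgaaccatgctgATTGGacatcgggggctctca
Spp1 and Dmp1 each have another listed start, which makes 6 windows. A CCAAT box lay in 5 of the 6, against 33.8% of 32851 RefSeq windows of this length, and in the 4 shown it began 46, 54, 101 and 21 bases before the start in the order printed. The Runx core lay in 3 of the 6 against 14.0%, once in Spp1 (128 bases before the start), in both orientations in Mepe (118 and 80 bases), and before the other start of Dmp1. TAATT, the homeodomain core, lay in 3 of 6 (25.03% of all windows), TATAAA in 3 of 6 (12.4%) and the E-box CANNTG in 6 of 6 (66.2%), on either strand. The Smad motifs GTCTAGAC and GGCGCC lay in 0 of 6 (0.167% and 9.59%). Windows of 1 gene are not independent, and a match in letters shows no binding.

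Per length, Dspp was the most abundant SIBLING transcript in each of the 6 libraries. Divided by the exon length in GENCODE M21, control levels were 729 ± 481 RPM per kb for Dspp, 52.5 ± 47.1 for Spp1, 41.2 ± 29.7 for Ibsp, 13.6 ± 16.2 for Dmp1 and 0.0840 ± 0.145 for Mepe (mean ± SD, n = 3). Spp1, Ibsp and Dmp1 were within 1 SD of their neighbours in that order. In mutants the order was Dspp at 875 ± 777 RPM per kb, Ibsp at 12.8 ± 1.56, Dmp1 at 4.52 ± 2.25, Spp1 at 2.66 ± 0.570 and Mepe at 0. The Spp1 mean thus stood below those of Ibsp and Dmp1 in mutants, within 1 SD of Dmp1, and above both in controls. Among the 12965 tested genes with a length, Dspp ranked between 5 and 10 in litter 1 libraries, 129 in control 3 and 1387 in mutant 3.

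**Figure D1:**
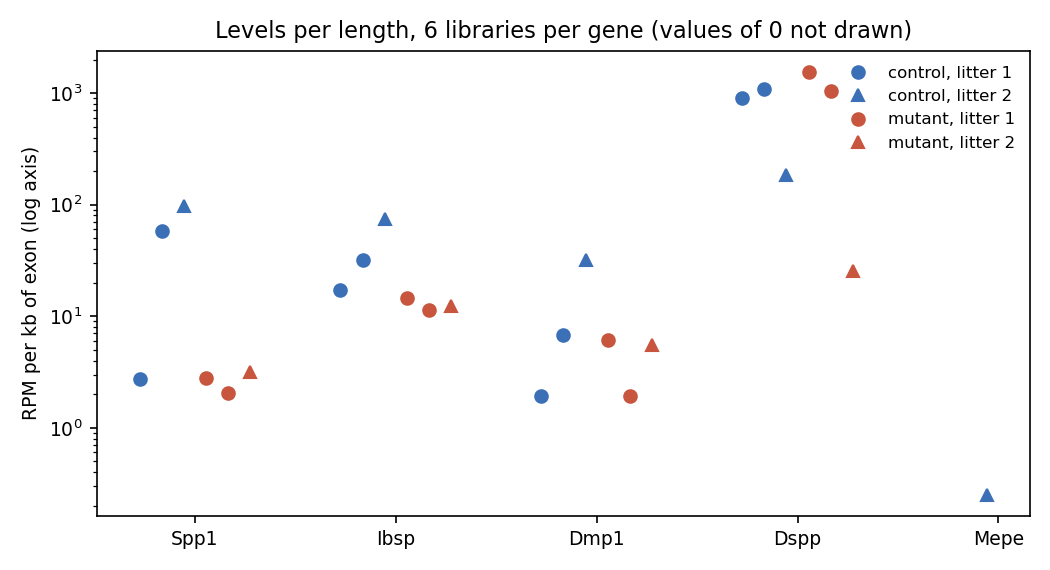
Level of each SIBLING gene per kb of exon (log axis), 1 point per library, blue for controls and red for mutants, circles for litter 1 and triangles for litter 2; values of 0 are not drawn. Dspp lies highest in every library, between 25.6 and 1551 RPM per kb, and Mepe has a single point.

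Spp1 encodes osteopontin, a phosphoprotein of bone that inhibits crystal growth and binds integrins and CD44. Its level was 4.54, 96.1 and 159 RPM in controls 1 to 3 and 4.62, 3.36 and 5.20 RPM in mutants 1 to 3. Controls 2 and 3 were high, control 1 lay inside the range of the mutants, and the groups overlapped. The difference was -3.05 (SE 1.14) on the log2(RPM + 1) scale, with a 95% interval from -5.73 to -0.36 (unadjusted p 0.0312, adjusted p 1.00, limma with Benjamini-Hochberg). Without control 1 it was -4.55 with an adjusted p of 0.0334 (limma, Benjamini-Hochberg), and over the other 20 alternatives the adjusted p was at least 0.896. It was -2.12 without control 3 (unadjusted p 0.0913) and -1.46 with sample weights (unadjusted p 0.278, limma). The SD of log2(RPM + 1) was 2.62 among controls, larger than for 99.9% of tested genes, and 0.26 among mutants, larger than for 56.9%.

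Ibsp encodes bone sialoprotein, which nucleates mineral and marks newly forming bone and cementum. It was at 35.5, 65.9 and 154 RPM in controls 1 to 3 and at 29.9, 23.6 and 25.7 RPM in mutants 1 to 3. Every mutant lay below every control, and Ibsp was the single tested SIBLING gene with no overlap. The difference was -1.41 (SE 0.47), with a 95% interval from -2.51 to -0.30 (unadjusted p 0.0195, adjusted p 1.00, limma with Benjamini-Hochberg). The gap between the nearest libraries of each genotype, control 1 and mutant 1, was 35.5 against 29.9 RPM. The mutants again lay close together, with a coefficient of variation of 12.2% against 72.2% in controls. Without control 3, the highest library, the difference was -0.86 (unadjusted p 0.0174, limma), and with sample weights it was -0.83 (unadjusted p 0.0692).

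**Figure D2:**
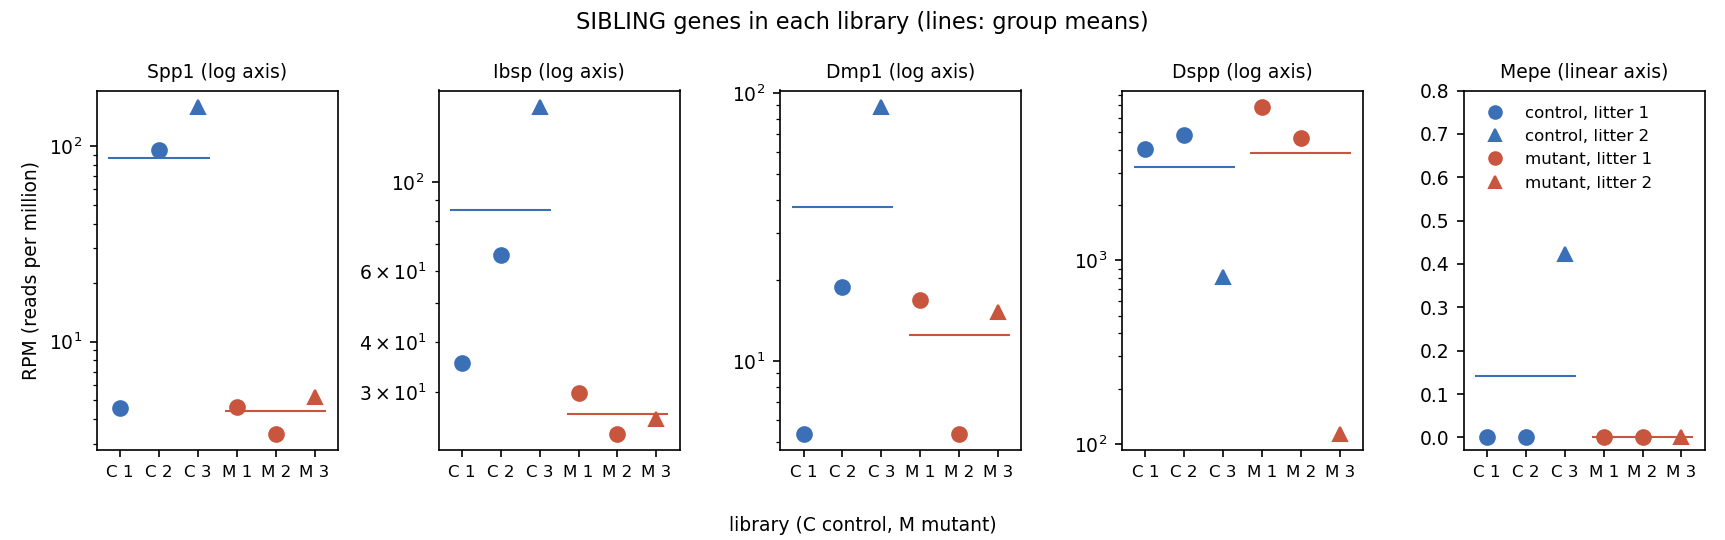
RPM of the 5 SIBLING genes in each library (log axes, except a linear axis for Mepe), with a line at each group's mean and the same colours and shapes throughout. Spp1 and Ibsp are highest in control 3 and tightly grouped in mutants, and Dspp is lowest in both litter 2 libraries.

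Dmp1, whose product is a nucleator of mineral and acts in phosphate balance, was at 5.33, 18.9 and 88.7 RPM in controls 1 to 3. In mutants 1 to 3 it was at 16.9, 5.36 and 15.2 RPM. Control 3 stood alone above the rest, and the other 5 libraries of both genotypes were intermixed. The difference was -0.87 (SE 0.91), with a 95% interval from -3.01 to 1.27 (unadjusted p 0.369, adjusted p 1.00, limma with Benjamini-Hochberg). Without control 3 it was 0.13, of the opposite sign, without control 1 it was -1.78 (unadjusted p 0.0457, limma), and with sample weights it was -0.08.

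Mepe, encoding a matrix phosphoglycoprotein best known from osteocytes, was detected in control 3 only. That library had 12 reads (exact Poisson 95% interval 6.20 to 20.96), a level of 0.424 RPM, and the other 5 had 0. A count of 0 allows up to 3 reads, or 0.0987 to 0.126 RPM in those libraries, which covers counting error only. The interval of control 3, 0.219 to 0.74 RPM, lay above those limits, which rests on 1 control library from litter 2. Mepe was left out of the main fit, and its difference was -0.17 on the log2(RPM + 1) scale. With no filter on low values that difference had an SE of 0.14 (unadjusted p 0.257, limma).

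Dspp encodes dentin sialophosphoprotein, the main non-collagenous protein of dentin. It was at 4032, 4844 and 817 RPM in controls 1 to 3 and at 6872, 4642 and 113 RPM in mutants 1 to 3. The litter 1 libraries of both genotypes were high and intermixed, and the litter 2 libraries were low. The genotype difference was -0.71 (SE 1.56), with a 95% interval from -4.39 to 2.96 (unadjusted p 0.663, adjusted p 1.00, limma with Benjamini-Hochberg). It was 1.17 without mutant 3 and 0.35 in litter 1 alone, so its sign rests on mutant 3. The mutant mean, 3876 ± 3444 RPM, was above the control mean, 3231 ± 2130 RPM (SD, n = 3), opposite in sign to the log2 difference. Dspp took 1.02% of reads on genes in mutant 1 and 0.0170% in mutant 3. Of all SIBLING RPM it made up 96.4% to 99.3% in litter 1 libraries, 67.0% in control 3 and 71.1% in mutant 3.

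Across the transcriptome no gene had an adjusted p under 0.05 between genotypes (0 of 14444, 0.00%, limma with Benjamini-Hochberg), and 152 had an unadjusted p under 0.05. With voom, run on the whole reads recovered from the table, these counts were 0 and 148. Of the 4 tested SIBLING genes, all had a negative difference, as did 54.4% of all tested genes, and their median was -1.14 against -0.01 over all genes. That median was -1.84 without control 1 and -0.46 in litter 1 alone. An unadjusted p under 0.05 with a lower mutant level was reached by 2 of 4, Spp1 and Ibsp, against 0.692% of all genes. Mutant levels lay wholly below control levels for 1 of 4, Ibsp, against 1.67%. Both litters gave a lower mutant level for 3 of 4, Spp1, Ibsp and Dmp1, against 18.1%. The count of 2 was 0 with sample weights, 1 with voom, 1 in litter 1 alone and 1 to 3 with any single library left out. In bulk tissue, fewer cells of a type and less RNA per cell cannot be told apart.

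The litters were then read separately. Within litter 1 the differences were -2.23 for Spp1, -0.84 for Ibsp, -0.07 for Dmp1 and 0.35 for Dspp on the log2(RPM + 1) scale. Within litter 2, with 1 library per genotype, they were -4.69, -2.54, -2.47 and -2.84 in the same order. The litter 2 value was the lower one for each gene, and for Dspp the litter 1 difference was positive. A litter-by-genotype term had an unadjusted p under 0.05 for Dspp (-3.19, SE 0.74, unadjusted p 0.00497) and Ibsp (-1.69, SE 0.53, unadjusted p 0.0182), against 5.06% of all genes. Their adjusted p was 0.66 and 0.812 (limma, Benjamini-Hochberg), and no gene passed adjustment (0.00%). For Dmp1 the unadjusted p of that term was 0.0815, and for Spp1 0.283. Without control 2 the term was -4.53 for Spp1, -3.22 for Dmp1 and -2.13 for Ibsp. Without control 1 the term was -0.40 for Spp1, -1.58 for Dmp1 and -1.26 for Ibsp. Both fits take their spread within groups from the litter 1 mutants alone, so no p-value is given for them.

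**Figure D3:**
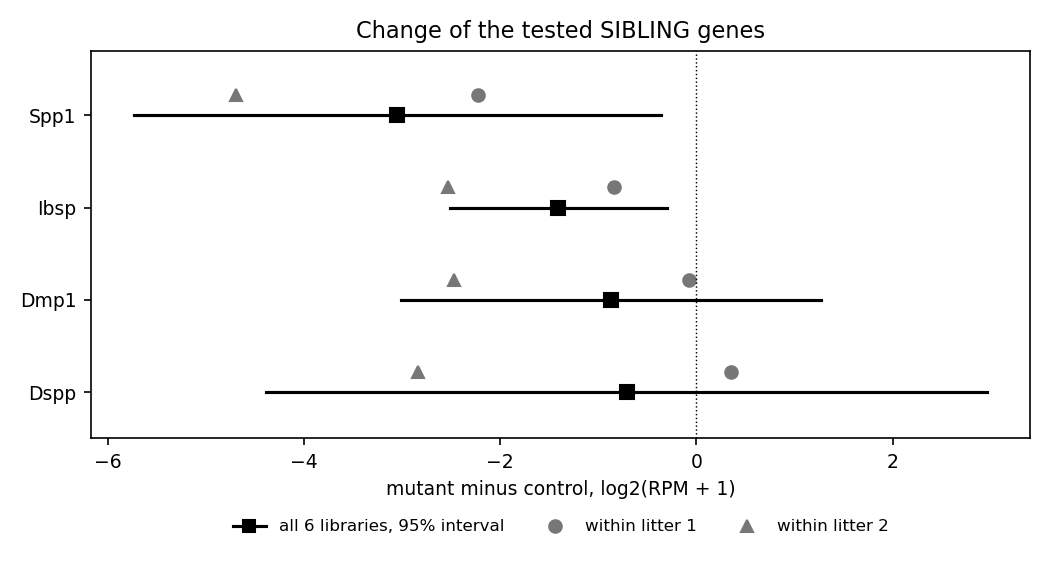
Difference between mutants and controls on the log2(RPM + 1) scale for the 4 tested genes: black squares with 95% intervals from all 6 libraries, grey circles from litter 1 and grey triangles from litter 2. The intervals of Spp1 and Ibsp lie below 0, those of Dmp1 and Dspp span it, and the litter 2 value is the lower one for each gene.

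Litter itself separated Dspp from the other SIBLING genes. With genotype in the fit, Dspp was lower in litter 2 by -4.03 (SE 0.71, unadjusted p 9.58e-04, adjusted p 0.0629, limma with Benjamini-Hochberg), from a mean of 5098 RPM in litter 1 to 465 RPM in litter 2. Dmp1 was higher in litter 2 by 1.80 (SE 0.72, unadjusted p 0.0447), Spp1 by 1.55 (SE 1.12, unadjusted p 0.21) and Ibsp by 0.80 (SE 0.42, unadjusted p 0.0993). The count at an unadjusted p under 0.05 was 2 of 4, Dspp and Dmp1, against 20.9% of all genes, and 0 of 4 passed adjustment against 0.872%. The litters did not overlap for Dspp alone of the 4, and for 35.5% of all genes. Without control 3 the litter difference was 0.32 for Spp1, -0.047 for Ibsp and 0.60 for Dmp1, and without mutant 3 it was 2.78, 1.65 and 2.9996 in the same order. For Dspp it was -5.63 without control 3, with an adjusted p of 0.0467 (limma, Benjamini-Hochberg) and mutant 3 as the single litter 2 library. Without mutant 3, which leaves control 3 alone in litter 2, it was -2.43 with an adjusted p of 0.195. The lone library is assumed to vary like the others.

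Ratios within a library do not depend on its depth. Spp1 over Ibsp, per kb, was 0.160, 1.83 and 1.30 in controls 1 to 3 and 0.194, 0.179 and 0.254 in mutants 1 to 3. Controls 2 and 3 thus had more osteopontin than bone sialoprotein transcript per length, and the other 4 libraries had less. Dspp over Dmp1, per kb, was 160 to 541 in litter 1 libraries, 5.75 in control 3 and 4.66 in mutant 3. This ratio differed little between genotypes within litter 2, while both genes were lower in mutant 3 than in control 3.

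The genes most alike were sought among 1876 tested genes with an SD of at least 0.5 in log2(RPM + 1), by Pearson's r over the 6 libraries, which share depth and dissection. Spp1 was most like Sfrp4, a secreted Wnt antagonist (r 0.98), then Opcml (0.96) and Pla2g4c (0.96). Ibsp was most like Hsd11b2 (0.99), which inactivates glucocorticoids, Sfrp4 (0.99) and Shisa3 (0.99). Sfrp4 was at 1.32, 8.53 and 21.5 RPM in controls 1 to 3 and at 1.03, 0.532 and 1.01 RPM in mutants 1 to 3, so it had the order of Ibsp among the controls. Dmp1 was most like Cyp26a1, which degrades retinoic acid (0.99), Agr2 (0.97) and Fras1, an epithelial basement membrane protein (0.97). Cyp26a1 reached 409.8 RPM in control 3 and 22.1 to 74.6 RPM elsewhere.

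Dspp was most like Phex, the membrane endopeptidase that acts on SIBLING-derived peptides (r 0.999), then Fam65c (0.998) and Loxl4 (0.994). Phex was at 387, 498 and 113 RPM in controls 1 to 3 and at 725, 507 and 18.2 RPM in mutants 1 to 3. Chosen for its likeness to Dspp, it was low in both litter 2 libraries and lowest in mutant 3. Among the members themselves r was 0.94 for Spp1 with Ibsp, 0.85 for Ibsp with Dmp1, 0.81 for Spp1 with Dmp1 and -0.35 to -0.07 for Dspp with each of these. With 6 points and 1 library far from the rest, these values describe the libraries only.

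**Figure D4:**
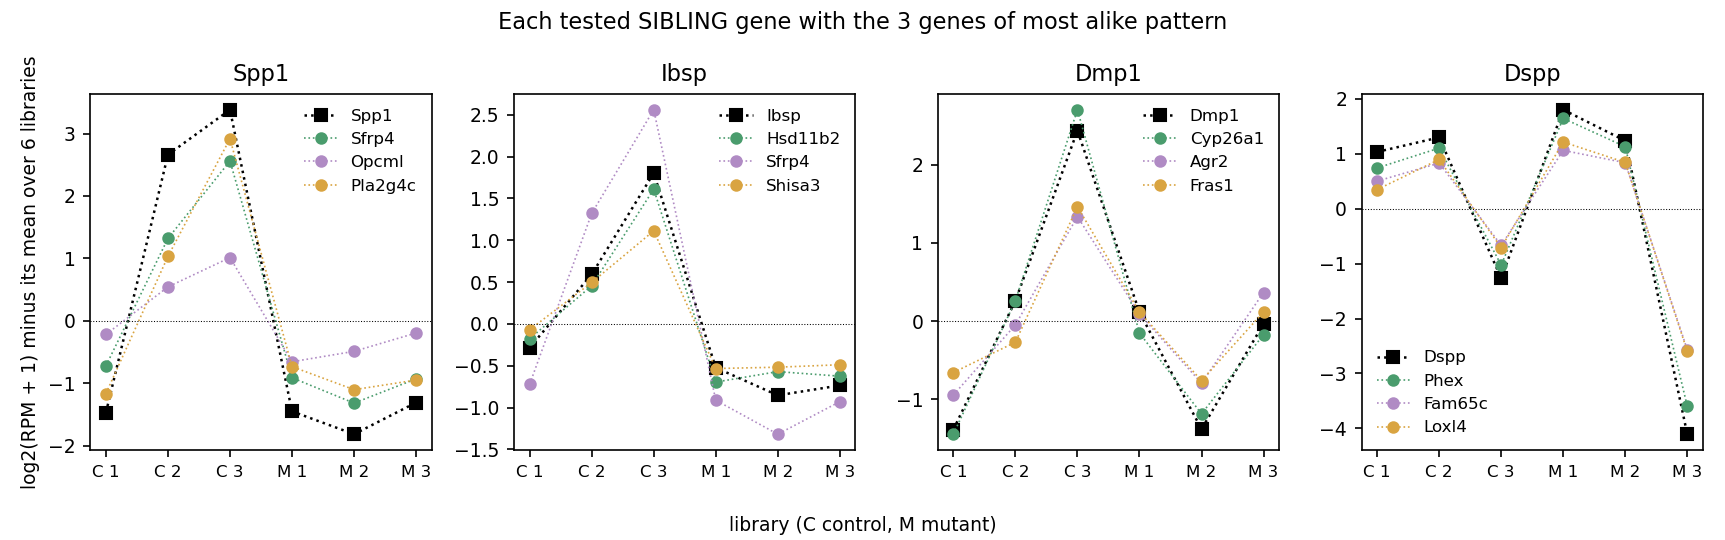
Each tested SIBLING gene (black squares) with its 3 most alike genes (coloured circles), as log2(RPM + 1) minus the gene's own mean over the 6 libraries; dotted lines only join points of a gene. Spp1, Ibsp and Dmp1 with their companions peak in control 3, whereas Dspp and its companions dip in control 3 and mutant 3.

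Receptors came next. Of 10 listed SIBLING receptors, all were tested, 7 had a negative difference (54.4% of all genes) and 3 a positive one, and the median was -0.06. With 1 library left out, 5 to 7 of 10 were negative and the median ran from -0.16 to -0.03. Itga4, an integrin subunit that binds osteopontin, was the single one with an unadjusted p under 0.05 and no overlap, 1 of 10 against 0.692% of all genes at that p. With Itgb1 (-0.20), 2 of 10 did not overlap and were lower in mutants, against 1.67%. Itga4 was at 65.7, 47.6 and 67.1 RPM in controls 1 to 3 and at 42.1, 45.2 and 42.2 RPM in mutants 1 to 3 (-0.45, SE 0.16, unadjusted p 0.0265, adjusted p 1.00, limma with Benjamini-Hochberg). Cd44, the hyaluronan receptor that also binds osteopontin, was at 66.9 to 236 RPM in controls and 90.3 to 214 RPM in mutants, with overlap. In the opposite direction 0 of 10 had an unadjusted p under 0.05, against 0.360% of all genes.

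The list of kinases, proteases and their cofactors held 16 genes, among them Fam20a (a pseudokinase), Pcolce (a proteinase enhancer) and Thbd (the thrombin receptor thrombomodulin). Of these, 12 were tested and 0 had an unadjusted p under 0.05, against 0.692% of all genes lower and 0.360% higher, with a median of -0.11, or 0.23 without mutant 3. The most abundant were Ctsb (cathepsin B), Mmp2 (gelatinase A) and Phex. Mmp2 was at 677, 470 and 518 RPM in controls 1 to 3 and at 306, 477 and 594 RPM in mutants 1 to 3. Fam20c, the kinase that phosphorylates secreted matrix proteins, was at 67.2 to 84.4 RPM in controls and 39.6 to 141 RPM in mutants, with a difference of 0.01. Bmp1, the protease that cleaves the Dspp and Dmp1 products, was at 142 to 162 RPM in controls and 128 to 171 RPM in mutants. Neither separated the genotypes.

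Of 14 listed transcription factors known to act on SIBLING genes, 10 had a negative and 4 a positive difference (54.4% of all genes were negative), with a median of -0.29. Klf4, a zinc-finger factor, was at 53.6, 52.4 and 137 RPM in controls 1 to 3 and at 30.9, 41.2 and 47.5 RPM in mutants 1 to 3, without overlap (-0.87, SE 0.38, unadjusted p 0.0532, limma). Runx2, the factor osteoblasts require, had 40.7, 53.3 and 69.0 RPM in controls 1 to 3 and 52.3, 29.0 and 33.7 RPM in mutants 1 to 3, with overlap (-0.50, unadjusted p 0.102, limma). Sp7, which acts after Runx2, gave -0.45 (unadjusted p 0.0818, limma). Of 11 listed BMP response genes 9 had a negative difference, against 54.4% of all genes, with a median of -0.31. An unadjusted p under 0.05 was reached by 0 of 11, against 0.692% of all genes lower and 0.360% higher; without control 2, 6 of 11 were negative.

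Markers of bone-forming cells varied from library to library in more than one way. Of 12 tested osteoblast and bone matrix genes all 12 had a negative genotype difference (median -0.38), against 54.4% of all genes, and without mutant 3 the count was 8 of 12. With an unadjusted p under 0.05 and a lower mutant level there was 1 of 12, against 0.692% of all genes. It was Omd, which encodes osteomodulin (-0.74, SE 0.30, unadjusted p 0.0413), with overlapping groups. Ifitm5, a marker of mineralizing osteoblasts, was at 4.84, 5.53 and 45.2 RPM in controls 1 to 3 and at 2.81, 2.495 and 6.33 RPM in mutants 1 to 3. Phospho1, a phosphatase that starts mineral formation, was at 47.2 RPM in control 3 and at 3.99 to 10.3 RPM elsewhere. Sost, a marker of osteocytes, was at 3.602 RPM in control 3 and at 0 to 0.168 RPM elsewhere. These 3 genes were chosen after their values were seen, and like Spp1, Ibsp, Dmp1 and Mepe they were highest in control 3. Of all 13 genes of the list 6 were highest there, and 4 (Bglap, Bglap2, Col1a1 and Col1a2) were highest in mutant 1. Sp7 and Pth1r were highest in control 2, and Col13a1 was lowest in control 3 at 5.47 RPM. The part of bone cells in the SIBLING values was not tested.

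Osteoclast and macrophage genes were also divided. Acp5, the tartrate-resistant phosphatase of osteoclasts, was at 13.3, 28.2 and 44.4 RPM in controls 1 to 3 and at 17.7, 10.6 and 12.7 RPM in mutants 1 to 3. Mmp9 (gelatinase B) had 11.2, 28.6 and 46.6 RPM in controls 1 to 3 and 20.1, 7.29 and 8.05 RPM in mutants 1 to 3. Both, chosen after their values were seen, were highest in controls 2 and 3, as was Spp1. The other 4 tested genes of the list were not: Ctsk (cathepsin K) was highest in control 2 and mutant 2, at 169.5 and 159 RPM, and the macrophage genes Csf1r, Cd68 and Itgam were lowest in control 3. The 10 listed osteoclast and macrophage genes in the table summed to 297 to 404 RPM in controls and 223 to 385 RPM in mutants. Of these, 6 were tested and 4 had a negative difference, against 54.4% of all genes, and 0 had an unadjusted p under 0.05 (0.692% of all genes lower, 0.360% higher). The osteoclast markers Dcstamp, Ocstamp, Oscar and Calcr reached at most 0.742 RPM, and all 4 were highest in control 3, as Spp1 was. In control 1 only Ocstamp had reads, at 0.0658 RPM, and all 4 were at 0 in mutant 3. The part of osteoclasts in the Spp1 values was not tested.

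Odontoblast markers followed Dspp only in part. Of 9 listed, 7 had a negative genotype difference (54.4% of all genes) with a median of -0.27, and without mutant 3 the count was 2 of 9. None (0 of 9) had an unadjusted p under 0.05, against 0.692% of all genes lower and 0.360% higher. Sall1, a transcription factor of odontoblasts, was at 10.96, 16.96 and 3.001 RPM in controls 1 to 3 and at 14.7, 13.5 and 2.10 RPM in mutants 1 to 3. Between litters it differed by -2.08 (SE 0.22, adjusted p 0.0336, limma with Benjamini-Hochberg), 1 of 9 odontoblast genes against 0.872% of all genes. At an unadjusted p under 0.05 the litters differed for 4 of 9, against 20.9%. Nes, an intermediate filament gene of odontoblasts, was at 454 to 543 RPM in litter 1 libraries, 288 RPM in control 3 and 164 RPM in mutant 3. Smpd3, a sphingomyelinase needed for dentin and bone mineral, was instead highest in control 3, with 458 RPM; elsewhere it ranged from 64.7 to 184 RPM.

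Enamel genes were the most variable of the neighbouring tissues. The 12 listed enamel epithelium genes summed to 4261, 2408 and 38320 RPM in controls 1 to 3 and to 48646, 4974 and 18609 RPM in mutants 1 to 3. Their sum, carried by Amelx, Ambn and Enam, was high in control 3, mutant 1 and mutant 3. These libraries had the most Cd44 and, apart from control 2, the most Dmp1. Klk4, Mmp20 and Sp6 of the same list were instead lowest in mutant 3, at 4.02, 37.0 and 89.1 RPM. Of the 12, 2 had a negative genotype difference, against 54.4% of all genes, and 10 a positive one, and 0 had an unadjusted p under 0.05 (0.692% of all genes lower, 0.360% higher). Without mutant 1 the positive count was 6 of 12 (median -0.21), and within litter 2 Amelx, Ambn and Enam gave -0.97, -1.21 and -1.51. Their part in the Dmp1 values was not tested. Among the secreted calcium-binding relatives of the SIBLING genes, Sparc (osteonectin) had 4449, 5316 and 4589 RPM in controls 1 to 3 and 6838, 5189 and 2531 RPM in mutants 1 to 3. The median difference of those 7 relatives was 0.84, and 0 of 7 had an unadjusted p under 0.05 (0.692% of all genes lower, 0.360% higher). This median was -0.10 without mutant 1 and 2.21 without control 3.

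**Figure D5:**
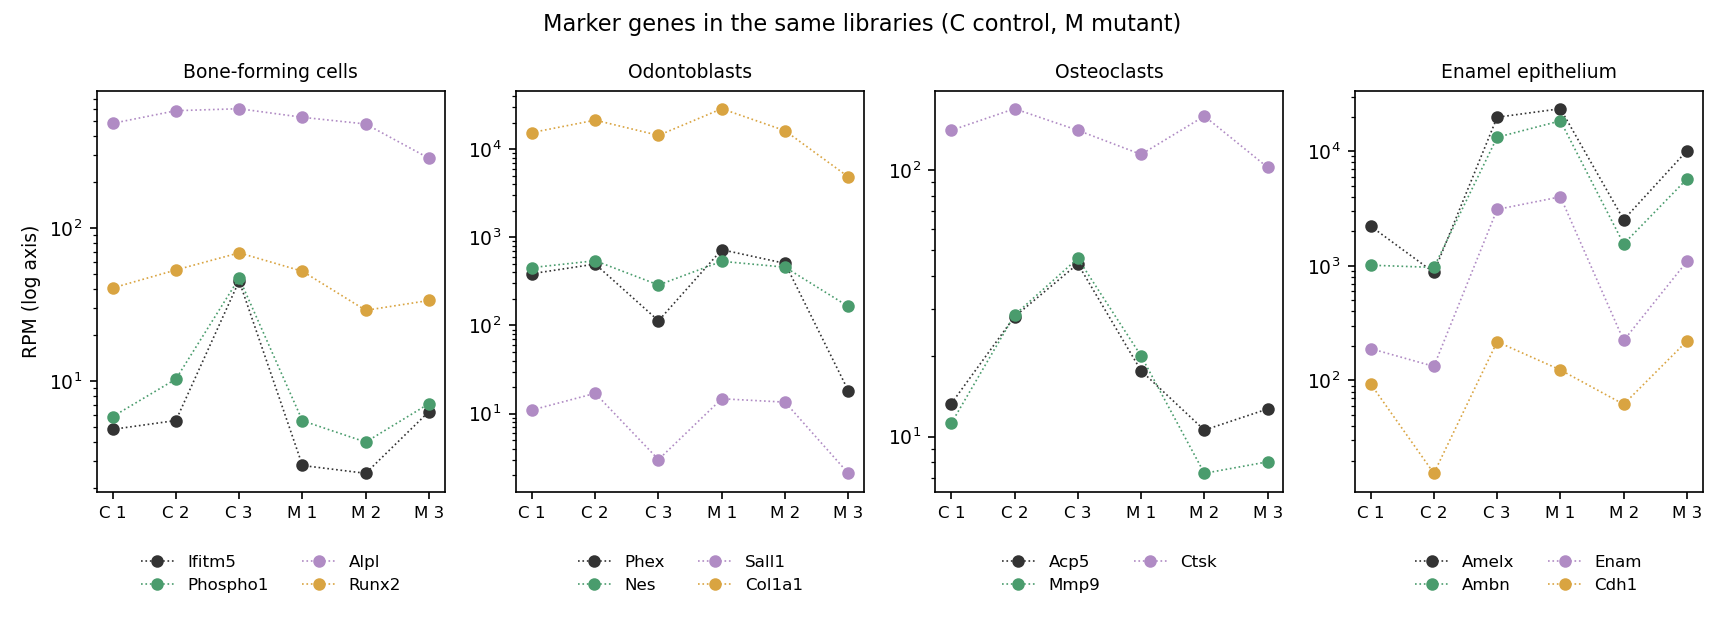
RPM (log axes) of marker genes in each library for bone-forming cells, odontoblasts, osteoclasts and enamel epithelium; dotted lines only join points of a gene. Ifitm5 and Phospho1 peak in control 3 at 45.2 and 47.2 RPM, Phex and Sall1 are low in control 3 and mutant 3, and the enamel epithelium genes drawn are highest in control 3, mutant 1 and mutant 3.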

How the data were processed

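Per the labels' protocols, poly(A) RNA of 6 molar samples was read on an Illumina NextSeq instrument. TopHat2 and build mm10 are named in the submitters' processing notes, and the counting program and annotation are not given in the sources used here. The authors deposited 1 table of log2 values titled normalized RPKM. Raised as powers of 2, 100% of each column's values above its minimum were whole multiples of 1 step shared by all genes (tolerance 0.01 of a step, widened in proportion for high values), so length had not been divided out. They were read as log2 RPM, an inference, and the column minimum (0.9 of a step) as 0 reads.

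The planned test assumed linear values, so the log2 values were first made linear. Genes whose mean reached 1 RPM were tested on log2(RPM + 1), which understates changes of low genes, with limma 3.58.1 in R 4.3.3 (trended eBayes, two-sided, Benjamini-Hochberg over all 14444 genes, no covariate). Reads of any pair of libraries differed beyond counting error (chi-square per degree of freedom at least 20.1). Exon lengths came from GENCODE M21 and were found for 89.8% of tested genes.

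The members, gene lists and motifs were chosen with earlier results of these data known. Genes named from a list were those without overlap and with an unadjusted p under 0.05, otherwise the most abundant; Lhx6, Msx1, Barx1, Runx2, Sp7, Pth1r, Col1a1, Col1a2, Col13a1, Ctsk, Csf1r, Cd68, Itgam, Ocstamp, Klk4, Mmp20, Sp6, Itgb1, Fam20c, Bmp1, Cd44, Omd, Ifitm5, Phospho1, Sost, Acp5, Mmp9, Dcstamp, Oscar, Calcr, Sall1, Nes, Smpd3, Sparc, Klf4, Bglap and Bglap2 were added after their values were seen. A gene that this rule names is not reported here. The litter comparison and its alternatives were also added then. Alternatives covered pseudocount, filter, scaling, eBayes options, sample weights, voom, litter, the replicate block and leaving out each library.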

Additional observations from a re-analysis of the deposited data

Results flagged for a closer look

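Both litters gave lower Ibsp in mutants, but the difference was larger in litter 2: the litter 2 change minus the litter 1 change was -1.69 on the log2(RPM + 1) scale (SE 0.53, unadjusted p 0.0182, adjusted p 0.812, limma with Benjamini-Hochberg). For Dspp this difference between litters was -3.19 (SE 0.74, unadjusted p 0.00497, adjusted p 0.66), from 0.35 in litter 1 to -2.84 in litter 2. These 2 were singled out at an unadjusted p under 0.05, a threshold set after the p-values had been seen, and neither passed adjustment over all genes. Since each genotype has a single library from litter 2, effects of litter, animal and dissection cannot be told apart. Without control 2 the Ibsp value was -2.13, in a fit whose spread within groups comes from the litter 1 mutants alone.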

How the results depend on the processing

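Over 21 alternatives the Spp1 difference ran from -4.55 to -1.46 and the Ibsp difference from -1.90 to -0.83, negative in each; the unadjusted p was under 0.05 in 13 for Spp1 and in 20 for Ibsp (limma). With each library left out in turn, the values ran from -4.55 to -2.12 for Spp1, -1.90 to -0.86 for Ibsp, -1.78 to 0.13 for Dmp1, -1.79 to 1.17 for Dspp and -0.25 to 0 for Mepe. Dmp1 reversed to 0.13 without control 3, and Dspp to 0.35 in litter 1 alone and to 1.17 without mutant 3. With litter as a block the 4 differences kept their values. Their SE was then 1.05 for Spp1, 0.39 for Ibsp, 0.68 for Dmp1 and 0.67 for Dspp. The unadjusted p was 0.0251, 0.0101, 0.246 and 0.324 in the same order (limma), and none passed adjustment. The Ibsp litter difference reversed to -0.047 without control 3, within a range of -0.047 to 1.65 with a library left out. Mepe was at -0.80 with a pseudocount of 0.1 and at -1.15 without a pseudocount, as follows from a smaller constant at low counts. Sample weights brought Spp1 to -1.46, with control 1 given the largest weight (3.68). The number of genes with an adjusted p under 0.05 was 0 in 20 of 21 alternatives and 0 to 1 with a library left out. At an unadjusted p it was 152, and 344 with no filter, 292 with a litter block, 319 from litter 1 only, 309 under sample weights and 68 to 325 with a library left out; the cause was not tested.

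With the replicate block it was 524 genes. In that fit Spp1 had an adjusted p of 0.896 and Ibsp of 0.885 (limma, Benjamini-Hochberg). Deviations of same-numbered libraries from their group means correlated at -0.03, 0.75 and 0.50 across genes. Controls 2 and 3 correlated best with their own number and control 1 did not. Control 3 and mutant 3 also share litter 2, so these values do not settle pairing. The labels link the libraries by litter only, so the numbers were not taken as pairs. Depth limits Mepe most, at 12 reads in all.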

Other observations

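The 6 erythroid genes summed to 177, 211 and 1986 RPM in controls 1 to 3 and to 257, 458 and 612 RPM in mutants 1 to 3. All 6 were highest in control 3, as were Spp1, Ibsp, Dmp1 and Mepe, and the part of blood in those values was not tested; alpha-globin is encoded by near-identical copies, which makes each single value uncertain. The 8 chondrocyte genes summed to 64.0, 63.9 and 38.1 RPM in controls and 23.0, 19.5 and 64.3 RPM in mutants. Endothelial genes summed to 292 to 374 RPM in controls and 240.2 to 354 RPM in mutants, glial genes (with S100b at -0.54, SE 0.20, unadjusted p 0.0306, without overlap) to 26.4 to 31.8 and 21.7 to 28.6 RPM, and skeletal muscle genes to 0.560 to 0.954 and 0.632 to 1.68 RPM.

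Bglap and Bglap2, the osteocalcin genes, did not follow Spp1 or Ibsp. Bglap was at 279, 730 and 437 RPM in controls 1 to 3 and at 831, 702 and 86.8 RPM in mutants 1 to 3, highest in mutant 1 and lowest in mutant 3. The copies are near-identical, so the split between them is uncertain. Bglap2 had the same highest and lowest libraries at 509 and 56.7 RPM.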
